A study of Homo sapiens with 29 samples.

Results

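Open chromatin was examined around 7 genes of the AP-1 and immediate early response, JUN, JUNB, FOS, FOSL1, FOSL2, ATF3 and EGR1, in 22Rv1, a human prostate cancer cell line. A region belonged to these loci when it lay within 50 kb of the gene's start in build hg19, after the peaks of all 29 libraries had been merged. This rule took 99 of 166696 regions: 30 at JUNB, 18 at FOS, 15 at FOSL1, 10 at JUN, 9 at FOSL2, 9 at ATF3 and 8 at EGR1. Regions are named by the distance of their centre from the start, upstream or downstream in the direction of transcription. The 50 kb windows of JUNB, FOSL1 and EGR1 also hold 8, 10 and 3 other protein-coding genes in the RefSeq annotation (GRCh38.p14), and those of JUN, FOS, FOSL2 and ATF3 hold none, so a region at the first 3 loci may belong to a neighbour.

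The assay was ATAC-seq: an enzyme inserts sequencing adapters where DNA is free of nucleosomes, so that reads pile up over open sites. Parental cells gave 5 groups of 3 libraries, each treated for 3 h: DMSO (0.1%), WX-02-23 (20 µM), WX-02-43 (20 µM), and pladienolide B (PladB), an inhibitor of the spliceosome, at 10 nM or 100 nM. Labels call WX-02-23 and WX-02-43 stereoprobes. Engineered cells gave 7 groups of 2 libraries, and every one of them overexpressed Y36C-PHF5A, a mutant of a spliceosome subunit that PladB contacts. One engineered line also carried WT-FOXA1 and the other C258A-FOXA1, each inducible by doxycycline (Dox). Both lines were given Dox with DMSO, with WX-02-23 (20 µM) or with PladB (100 nM), and the WT-FOXA1 line was also given DMSO without Dox. FOXA1 is a pioneer factor that opens chromatin in prostate cells. The labels do not say that the cells' own FOXA1 was removed, whether each line is a clone, or whether replicates came from separate cultures, so p-values measure only the spread between these libraries.

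AP-1 is a dimer of a JUN protein (JUN or JUNB here) with a FOS protein (FOS, FOSL1 or FOSL2) or with a relative such as ATF3, and it binds the motif TGANTCA. FOS, EGR1, JUNB and ATF3 are immediate early genes: growth factors and stress switch them on within minutes, without new protein synthesis, through factors that already sit at their promoters. EGR1 is a zinc finger factor, and its promoter is a textbook target of the serum response factor, which binds the CArG box. AP-1 sites are a common class of open enhancers in epithelial cells. Accessibility at a locus is not a measure of transcription, and no RNA was measured in these libraries.

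The sequence before the start is shown for 3 promoters. At each the region over the start was open in all 29 libraries, as it also was at JUN, FOSL1 and FOSL2. EGR1 and JUNB hold a match to one of the motifs searched. FOS holds none in the 250 bases shown, and sites further upstream or with other letters were not searched. Each run is the 250 bases before the RefSeq start (build GRCh38.p14), 5′ to 3′, on the plus strand, with matches in capitals. They are a CArG box on EGR1, found at 2 places (bases -105 to -96 and -83 to -74, counted back from the start), and a forkhead motif on JUNB, at bases -166 to -160, the kind of motif FOXA1 binds.
EGR1, chr5:138465229-138465478: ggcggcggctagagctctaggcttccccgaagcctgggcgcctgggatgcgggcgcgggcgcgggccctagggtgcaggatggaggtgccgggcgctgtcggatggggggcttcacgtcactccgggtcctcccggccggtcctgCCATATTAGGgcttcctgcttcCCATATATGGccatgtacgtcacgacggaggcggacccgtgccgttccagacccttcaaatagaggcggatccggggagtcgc
JUNB, chr19:12791236-12791485: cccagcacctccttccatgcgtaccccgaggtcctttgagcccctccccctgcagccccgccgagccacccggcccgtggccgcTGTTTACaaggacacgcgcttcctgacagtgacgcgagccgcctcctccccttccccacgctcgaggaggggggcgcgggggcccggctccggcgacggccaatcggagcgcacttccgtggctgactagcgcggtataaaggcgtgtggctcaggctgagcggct
FOS, chr14:75278578-75278827: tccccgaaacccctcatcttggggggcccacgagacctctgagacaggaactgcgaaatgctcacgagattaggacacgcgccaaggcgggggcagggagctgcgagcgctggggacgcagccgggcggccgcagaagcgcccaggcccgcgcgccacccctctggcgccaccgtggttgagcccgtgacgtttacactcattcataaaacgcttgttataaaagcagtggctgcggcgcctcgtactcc
Both strands were searched for AP-1 (TGANTCA), its relative CRE (TGACGTCA), the CArG box, the EGR motif as GCGGGGGCG or GCGTGGGCG, and the forkhead motif TGTTTAC. Of 35116 RefSeq promoter windows of this length, 1.16% held a CArG box, 2.98% the forkhead motif, 6.57% the AP-1 motif, 1.65% the CRE, and 4.72% and 0.72% the EGR motifs. The windows of JUN, FOSL2 and ATF3, which has 2 entries, held none of these letters, and FOSL1 was not matched in the promoter table. A match is a description of the letters and not evidence of binding.

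Peak lists held 82538 to 98193 peaks in parental and 62832 to 92658 in engineered libraries, and sequencing totals were not used here. The background that the peak caller used, a relative measure of depth recovered from the lists, ranged from 0.546 to 1.502 reads per base, and the weakest peaks at that background had 5 to 8 reads at the summit. A region with fewer reads than that was not detectable. Peaks at that background made up 14.3% to 25.2% of a list, and a higher local background raises the reads a peak needs. Parental and engineered lists name 2 processing folders with none shared, so cell line and batch cannot be told apart. Members held tended to rise with list length, as the plot of regions held against list length shows. The shortest list, with 62832 peaks, held 52 of the 99 regions, and the longest, with 98193, held 69. The order was not strict: a no-Dox library with 69814 peaks held 65, and a C258A-FOXA1 library given WX-02-23 with 92658 peaks held 62.

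**Figure D1:**
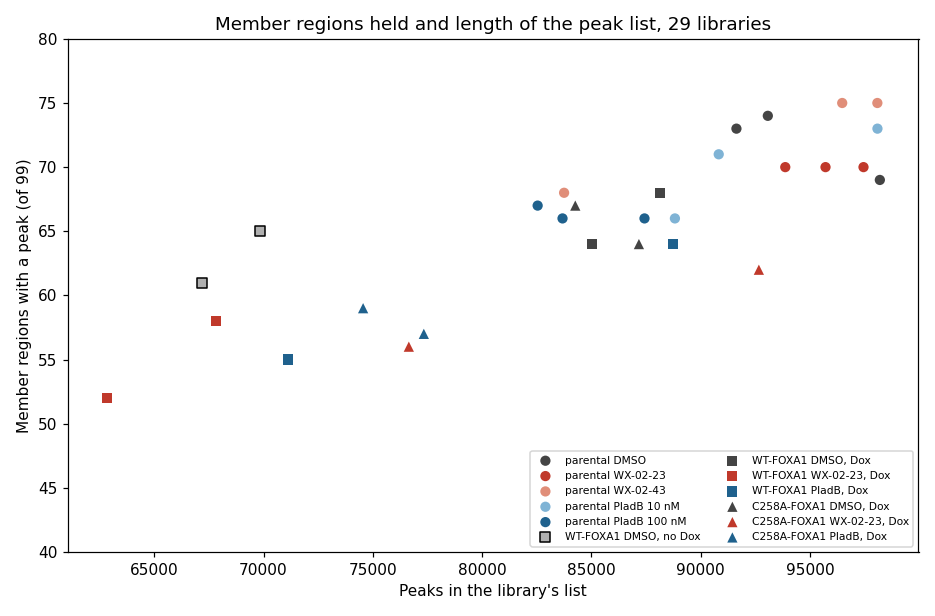
Number of the 99 regions with a peak (vertical axis, which starts at 40) against the number of peaks in the library's list (horizontal axis), 1 point per library, with colour and shape giving the group. Parental libraries held 66 to 75 regions and engineered libraries 52 to 68, and the shortest list, a WT-FOXA1 library given WX-02-23, held the fewest.

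Fewer than 50% of the regions at these loci, 45 of 99 (45.5%), had a peak in all 29 libraries, against 21.5% of all regions. FOSL1 had the most stable locus, with 11 of 15 regions in all 29 libraries, and FOSL2 the least, with 1 of 9. Between them lay ATF3 (5 of 9), EGR1 (4 of 8), JUNB (13 of 30), JUN (4 of 10) and FOS (7 of 18). A single library held 7 of the 99 (7.1%), against 16.9% of all regions. The map of the regions shows the sites that vary, some of them close to a start, as at JUNB 1.3 kb upstream and 1.2 kb downstream.

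**Figure D2:**
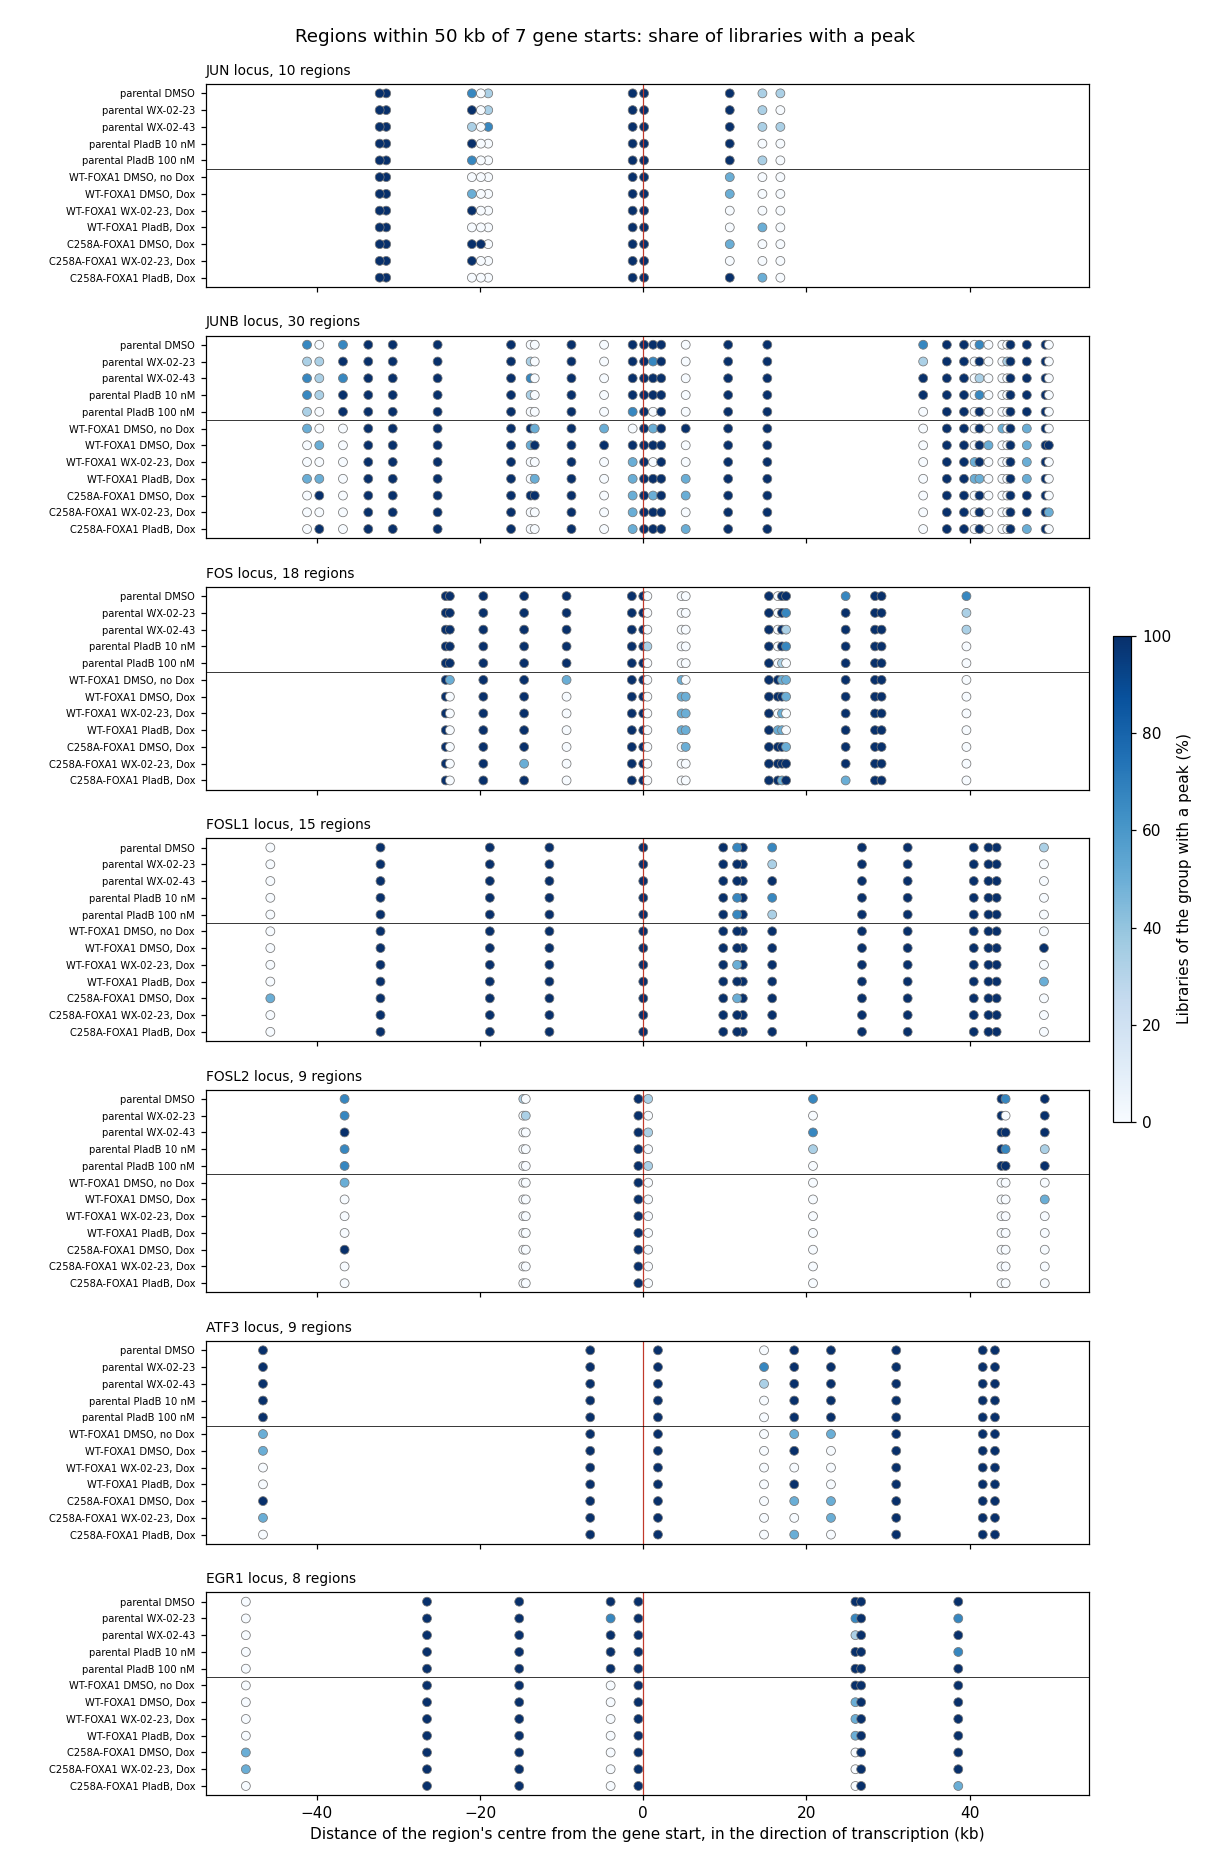
Each of the 99 regions is drawn at its distance from the gene start in kb (horizontal axis, start at the red line) for the 12 groups (rows, parental above the black line), and the shade gives the share of the group's libraries with a peak. Columns that are dark in all 12 rows are the 45 regions held by all 29 libraries, and the start itself is covered by one at every gene except ATF3.

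At the gene starts, 6 of 7 loci had a region over the start in all 29 libraries. ATF3 was the exception: no peak of any library covered the given start, and the nearest region, 1.8 kb downstream (hg19 chr1:212740043-212740976), was open in all 29. A further ATF3 region 43.1 kb downstream (chr1:212781127-212782346) was also held by all 29. Which of the gene's starts these regions belong to was not tested, as no hg19 annotation was used here.

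The authors' fold, the reads at a peak's summit over the local background, described how far each start stood out. A wide open promoter raises its own local background, so the fold can be low where reads are many, and the recovered reads at the summit are given beside it. At JUN (chr1:59248940-59250454), which encodes the main partner of the FOS proteins, the fold was 7.37, 7.51 and 8.20 in parental DMSO libraries, with 114, 127 and 126 reads at the summit. At EGR1 (chr5:137799639-137801498) it was 6.02, 6.25 and 6.84, with 102, 112 and 117 reads. These were the starts with the most reads. At FOSL2 (chr2:28614382-28616012) the DMSO fold was 6.68, 6.72 and 5.94, with 89, 99 and 80 reads. At JUNB (chr19:12902035-12902774) it was 5.86, 4.96 and 5.65, with 79, 71 and 75 reads. At FOS (chr14:75745016-75745932) it was 6.34, 6.10 and 6.51, with 62, 70 and 68 reads. FOSL1 (chr11:65667723-65668302) ran the other way, with a narrow start region, the highest start fold of 13.98, 12.91 and 12.72, and only 52, 52 and 43 reads. The ATF3 region 1.8 kb downstream had 11.47, 9.94 and 9.91, with 38, 34 and 33 reads.

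**Figure D3:**
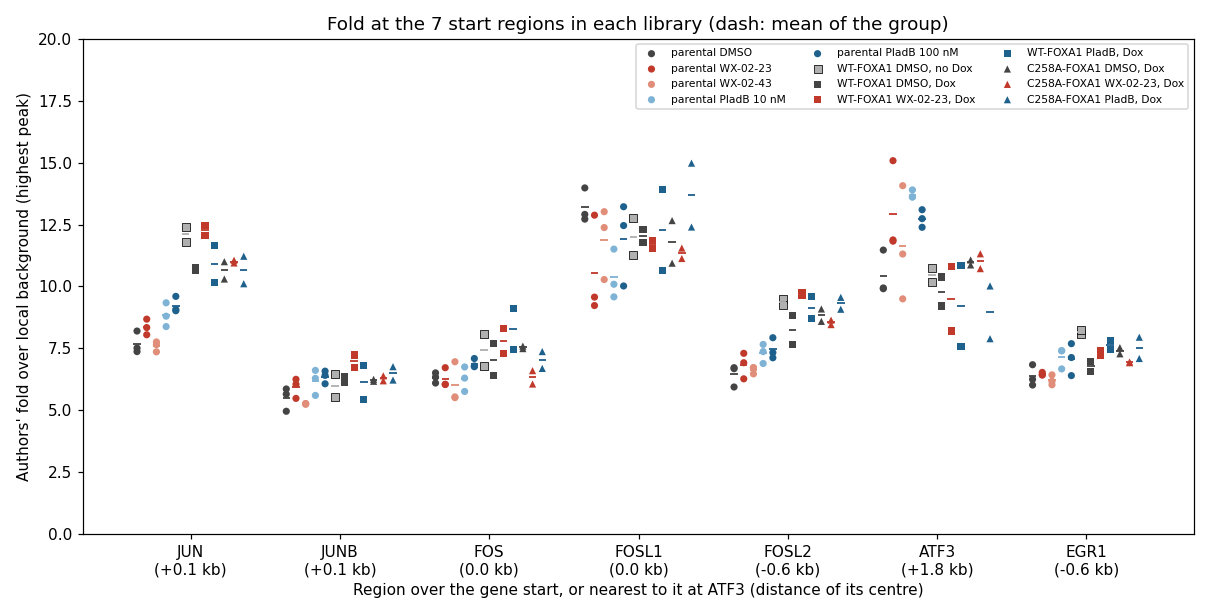
The authors' fold over local background (vertical axis, from 0) at the start region of each gene (horizontal axis), with 1 point per library, a dash for the group mean, and colour and shape for the 12 groups. FOSL1 and ATF3 stand highest in parental cells, and at JUN all engineered libraries lie above all parental ones.

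With the start regions left out, the region with the highest mean fold at each locus in parental DMSO cells was as follows. At JUNB it was 25.2 kb upstream (chr19:12876791-12877414), with a fold of 13.25, 14.08 and 13.70. At FOS it was 15.4 kb downstream (chr14:75760478-75761208), with 12.72, 11.67 and 12.71. At EGR1 it was 26.7 kb downstream (chr5:137827582-137828240), with 11.45, 10.84 and 13.27. JUN followed with the region 31.5 kb upstream (chr1:59280840-59281699), at 11.12, 11.76 and 11.76. At ATF3 the region 6.5 kb upstream (chr1:212731556-212732884) had 11, 10.24 and 12.12. At FOSL1 the region 18.8 kb upstream (chr11:65685999-65687769) had 9.65, 9.76 and 8.32. At FOSL2 the region 43.9 kb downstream (chr2:28659365-28659942) had 7.54, 10.44 and 8.63. All of these but the FOSL2 region were held by all 29 libraries. By summit reads the order could differ. ATF3 43.1 kb downstream had 109, 109 and 97 DMSO reads, against 58, 55 and 60 at ATF3 6.5 kb upstream. At JUN and EGR1 the region named also had the most reads outside the start.

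The FOSL2 region 43.9 kb downstream was the one member held by all 15 parental and by no engineered library, where 0.614% of all regions were. Its parental fold ran from 5.08 over a median of 7.07 to 10.44. No member was held by all 14 engineered and no parental library, where 0.101% of all regions were. In all, 15 of the 99 regions (15.2%) had a peak in some parental but no engineered library, against 25.2% of all regions, and 13 (13.1%) the reverse, against 18.5%.

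To compare strength between lists, the fold was turned into a rank percentile, from 0 to 100, within each list among the same set of regions. Among the 35901 regions held by all 29 libraries, the percentiles of the 15 parental and the 14 engineered libraries did not overlap at 8 of the 45 members (17.8%, against 5.92% of all such regions). At 7 of these the engineered libraries stood higher. The JUN start lay at percentile 16.4 to 40.4 (median 25.6) in parental and 45.1 to 82.3 (median 57.6) in engineered libraries. The JUNB region 49.3 kb downstream lay at 1.8 to 10.6 in parental and 24.4 to 83.4 in engineered libraries. The ATF3 region 43.1 kb downstream lay at 6.0 to 20.2 and 32.0 to 62.8. FOS went both ways: the region 19.6 kb upstream lay at 31.5 to 61.6 in parental and 68.9 to 94.3 in engineered libraries, and the region 24.2 kb upstream, the exception among the 8, lay lower in engineered libraries, at 0.1 to 2.7 against 3.6 to 12.8. The other 3 were FOSL1 regions 12.2, 26.8 and 40.5 kb downstream. Reads at the summit, which also move with depth, overlapped between parental and engineered libraries at all 8. At the JUN start they were 110 to 145 in parental and 118 to 153 in engineered libraries, and at the JUNB region 21 to 51 and 49 to 88. These values are a description, because line and batch cannot be told apart.

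The first drug question was whether a 3 h treatment opened or closed whole regions. A region counted as gained when every library of the treated group and none of the control group had a peak, and as lost in the reverse case. In parental cells no member was gained by any treatment. WX-02-23 gained 0 and lost 0 of the 85 members held by any library of that comparison, where 1.82% and 1.18% of all regions were gained and lost. WX-02-43 also gained and lost 0 of 83 (0.34% and 0.369% of all regions), as did PladB 10 nM (0.408% and 0.556%). Leaving out a library gave 1 or 2 members under WX-02-23 (2 without DMSO replicate 2, 1 without WX-02-23 replicate 3). It gave 1 under WX-02-43 without any 1 of its 3 libraries, and 1 under PladB 10 nM without DMSO replicate 1 or PladB 10 nM replicate 1.

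PladB 100 nM lost 2 of 80 members and gained 0, where 1.68% and 0.187% of all regions did. One was the region 17.5 kb downstream of FOS (chr14:75762838-75763074), with 28, 34 and 28 reads at the summit in DMSO and a fold of 4.07, 4.21 and 3.78. It was also missing from 1 WX-02-23, 2 WX-02-43 and 1 PladB 10 nM library. The other was the region 1.2 kb downstream of the JUNB start (chr19:12903337-12903741), with 35, 45 and 44 reads in DMSO. Its DMSO fold was low, at 2.62, 3.1 and 3.3, and it had a peak in 11 of 15 parental libraries. Without DMSO replicate 2 the count was 4. The PladB 100 nM libraries held 66.3 ± 0.6 of the 99 regions (SD, n = 3) against 72.0 ± 2.6 (SD, n = 3) in DMSO, a difference of -5.67. The two-sided exact permutation test gave p = 0.1, which is as low as 20 arrangements of the libraries can go, and 0.4 when adjusted by Benjamini-Hochberg over the 4 treatments. Their lists were also shorter, 84547 ± 2558 against 94298 ± 3449 peaks (SD, n = 3), and their background lower, 0.705 ± 0.038 against 0.935 ± 0.062 reads per base (SD, n = 3). The part of depth in the difference was not tested. WX-02-23 libraries held 70.0 ± 0.0, WX-02-43 libraries 72.7 ± 4.0 and PladB 10 nM libraries 70.0 ± 3.6 regions (SD, n = 3), with exact permutation p of 0.4, 0.8 and 0.6.

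In the WT-FOXA1 line with Dox, WX-02-23 lost 7 of 73 members and gained 0, where 11.7% and 1.31% of all regions did. The lost share of the members, 9.59%, lay near that background. They were JUNB regions 13.3 and 4.8 kb upstream and 1.2 and 49.7 kb downstream, the FOS region 16.5 kb downstream, the ATF3 region 18.5 kb downstream and the FOSL1 region 49.1 kb downstream. Their DMSO summits held from 12 reads (ATF3) to 44 reads (JUNB 1.2 kb downstream). The DMSO fold went the other way, with 4.82 and 5.46 at the ATF3 region and 3.26 and 3.1 at JUNB 1.2 kb downstream. The FOS region (chr14:75761839-75762093) was held by 11 of 14 engineered and by no parental library. The WX-02-23 lists of this line were the shortest, 65324 ± 3524 against 86574 ± 2214 peaks with DMSO (SD, n = 2). With all lists cut to the same length, 3 members instead of 7 were lost or gained, and without WT-FOXA1 DMSO replicate 2 the count was 13.

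PladB in this line lost 2 members and gained 0, where 3.05% and 0.915% of all regions did: the JUNB regions 4.8 kb upstream and 49.7 kb downstream, and this comparison shares its DMSO libraries with the one above. The count was 8 without DMSO replicate 2, and 5 or 9 without PladB replicate 1 or 2. Dox against no Dox gained 3 members, where 13.2% of all regions were gained, and lost 1, where 1.1% were. The gained regions were JUNB 1.3 kb upstream, JUNB 49.7 kb downstream and FOSL1 49.1 kb downstream, and the lost one was JUNB 5.2 kb downstream. Leaving out 1 of the 4 libraries gave 7 without Dox replicate 1, 8 without Dox replicate 2 or no-Dox replicate 1, and 11 without no-Dox replicate 2. Lists without Dox held 68504 ± 1852 peaks (SD, n = 2).

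In the C258A-FOXA1 line, WX-02-23 lost 5 of 72 members and gained 0, where 2.55% and 2.37% of all regions did. They were JUNB regions 39.7, 13.8 and 13.3 kb upstream, the JUN region 19.9 kb upstream and the FOSL2 region 36.6 kb upstream. DMSO summits ran from 8 and 10 reads at the JUN region to 35 and 42 at JUNB 13.3 kb upstream. The JUN region lay close to the limit of 5 to 8 reads, which holds only at the list's background. The DMSO fold went the other way, with 4.56 and 5.37 at the JUN region and 3.05 and 3.55 at JUNB 13.3 kb upstream. Without DMSO replicate 1 the count was 11, and with lists of the same length it was 3. PladB lost 6 of 72 and gained 0, where 4.67% and 0.806% of all regions did. They were JUNB regions 13.8 and 13.3 kb upstream, JUN regions 21.0 and 19.9 kb upstream, FOSL2 36.6 kb upstream and ATF3 46.6 kb upstream, and the 2 drugs share their DMSO libraries. The count was 10 without either DMSO replicate or PladB replicate 1. The JUNB region 13.3 kb upstream (chr19:12888860-12889078) was thus lost under WX-02-23 in both engineered lines. It had no peak in any parental library and spanned only 219 bp. The next region, JUNB 13.8 kb upstream (chr19:12888427-12888685), had a peak in 4 of 15 parental libraries. Whether the 2 are parts of 1 open site was not tested.

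The direct comparison of the stereoprobes, both at 20 µM for 3 h, gained 0 and lost 1 of 83 members, where 1.6% and 1.07% of all regions did. The lost region lay 44.4 kb downstream of FOSL2 (chr2:28659990-28660282), next to the parental-specific region described above. It had 14, 15 and 19 summit reads in WX-02-43 libraries and no peak in WX-02-23 libraries, while DMSO libraries had 18 and 16 reads in replicates 1 and 3 and no peak in replicate 2. The count was 3 without WX-02-23 replicate 3 and 2 without any 1 WX-02-43 library.

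The second drug question was whether regions that stayed open changed in strength. Ranks of the fold were converted to normal scores and tested with limma, with Benjamini-Hochberg adjustment over all 54404 regions held by all 15 parental libraries, 54 of them members, or over the 37263 held by all 14 engineered libraries, 46 of them members. Members missing from a library of the fit were not tested. In parental cells WX-02-23 lowered 1 of the 54 members and raised 0, where 2.24% of all regions were called. It was a region 9.4 kb upstream of FOS (chr14:75735878-75736323, 446 bp).

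At this FOS region the DMSO fold was 8.41, 10.86 and 10.04, with 17, 25 and 22 reads at the summit. With WX-02-23 it was 6.41, 6.41 and 4.68, with 13, 13 and 8 reads. All 3 treated libraries lay below all 3 DMSO libraries. By percentile the 2 groups were separated, in either direction, at 13 of the 54 members and at 19.7% of all regions. With WX-02-43 the fold was 7.12, 9.44 and 5.97, with PladB 10 nM 8.70, 6.63 and 5.45, and with PladB 100 nM 6.92, 5.74 and 5.42. WX-02-43 and PladB 10 nM each had 1 library above the lowest DMSO value, and PladB 100 nM had none. The mean percentile was 51.9 in DMSO, 11.3 with WX-02-23, 28.0 with WX-02-43, 19.6 with PladB 10 nM and 12.3 with PladB 100 nM. The score difference for WX-02-23 was -1.353 ± 0.300 (SE), with an adjusted p of 0.0248 by limma. For PladB 100 nM it was -1.24 ± 0.300 (SE), with an adjusted p of 0.102, and for PladB 10 nM and WX-02-43 the adjusted p was 0.475 and 0.825. These contrasts share the DMSO libraries. WX-02-23 against WX-02-43 differed by -0.694 ± 0.300 (SE, adjusted p = 0.328, limma), so no difference between the stereoprobes was called at this region. By percentile all 3 WX-02-23 libraries (13.3, 17.4 and 3.1) lay below all 3 WX-02-43 libraries (20.8, 44.5 and 18.8). These 2 groups were separated, in either direction, at 17.7% of all regions. The WX-02-23 call was lost without DMSO replicate 2 (adjusted p = 0.1), DMSO replicate 3 (0.0822), WX-02-23 replicate 1 (0.0508) or WX-02-23 replicate 3 (0.119). In engineered cells the region had a peak in 1 of 14 libraries, a no-Dox library with a fold of 6.08 and 10 reads.

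**Figure D4:**
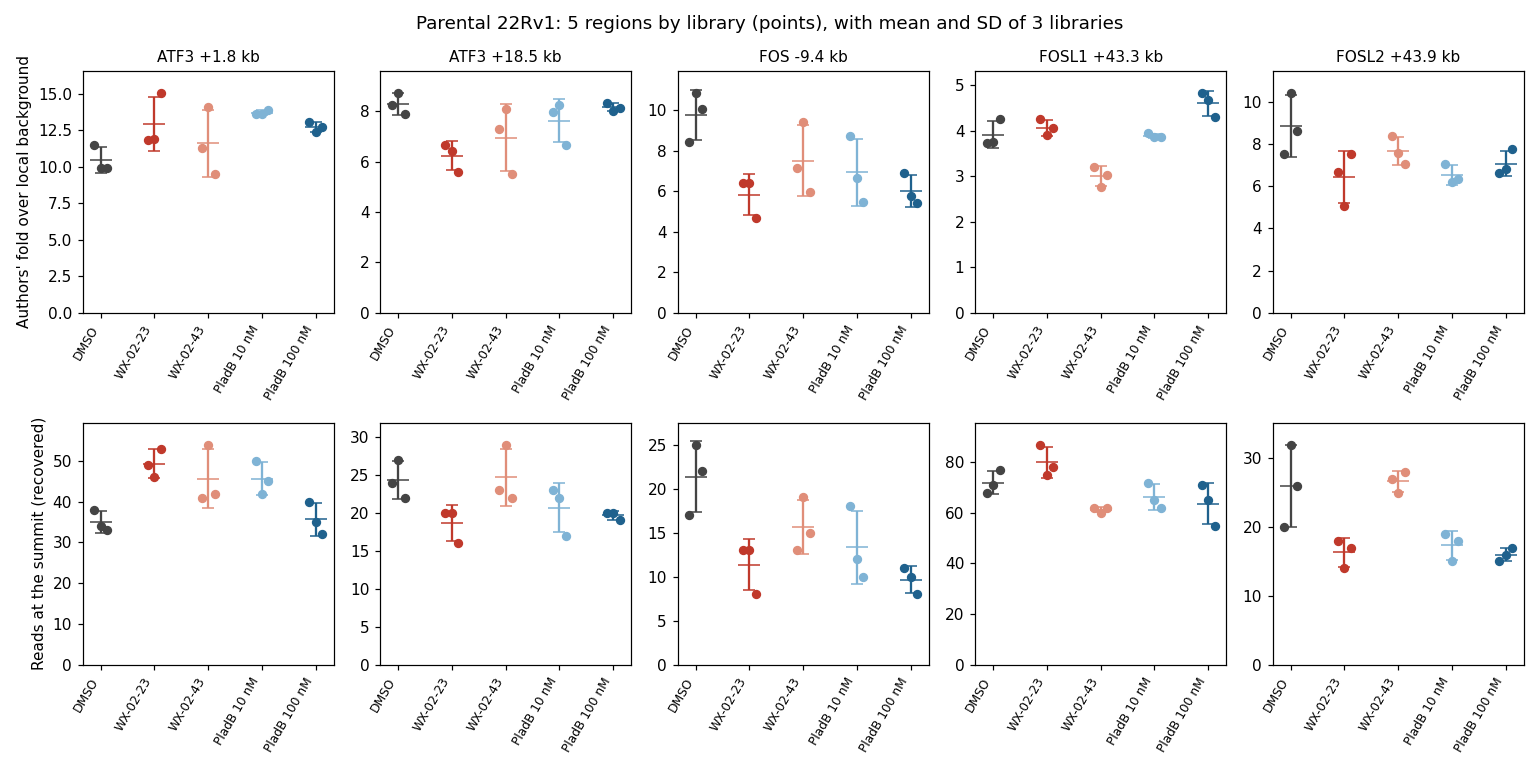
The authors' fold over local background (upper row) and the recovered reads at the summit (lower row) for 5 regions in the 15 parental libraries (points), with the mean and SD of 3 libraries per group and vertical axes from 0. At FOS 9.4 kb upstream the WX-02-23 points (4.68 to 6.41) lie below the DMSO points (8.41 to 10.86), and at FOSL1 43.3 kb downstream the WX-02-43 points lie lowest in the upper row.

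The stereoprobes differed by rank at 1 of the 54 members, where 1.78% of all regions were called. It was a region 43.3 kb downstream of FOSL1 (chr11:65624484-65624928), in a dense neighbourhood of genes. Its mean percentile was 1.4 with WX-02-23 and 0.2 with WX-02-43, both at the bottom of the list, with an adjusted p of 0.0411 by limma. DMSO libraries lay at 0.8, 0.8 and 2.0. The WX-02-23 libraries (1.7, 1.1 and 1.3) were within that range, and the WX-02-43 libraries (0.2, 0.0 and 0.2) below it. The summit held 87, 75 and 78 reads with WX-02-23 and 62, 60 and 62 with WX-02-43, against 68, 71 and 77 in DMSO, so WX-02-23 lay above WX-02-43 in reads as well. The call was lost when any 1 of the 6 libraries was left out: the adjusted p was 0.134, 0.0899 and 0.105 without WX-02-23 replicates 1, 2 and 3, and 0.0634, 0.166 and 0.0751 without WX-02-43 replicates 1, 2 and 3. It was also lost with the replicate number as a block (0.0543).

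When the recovered reads at the summit were ranked instead of the fold, a choice made after seeing the data, WX-02-23 against DMSO gave 4 members, where 5.77% of all regions were called. The FOS region 9.4 kb upstream was among them (adjusted p = 0.0164 by limma). The FOSL2 region 43.9 kb downstream fell, from 20, 32 and 26 summit reads in DMSO to 18, 14 and 17 (read percentile 36.5 to 10.8, adjusted p = 0.00862). WX-02-43 libraries had 27, 25 and 28 reads there, and the 2 stereoprobes differed by rank of the reads (adjusted p = 0.0152), a call that rank of the fold did not give (adjusted p = 0.352). PladB libraries also lay below DMSO at this FOSL2 region, with 19, 15 and 18 reads at 10 nM and 15, 16 and 17 at 100 nM. Neither PladB dose was called there. The ATF3 region 18.5 kb downstream fell from 24, 27 and 22 to 20, 20 and 16 reads (percentile 33.6 to 16.7, adjusted p = 0.0376). The ATF3 region 1.8 kb downstream rose from 38, 34 and 33 to 49, 46 and 53 reads (percentile 53.8 to 68.2, adjusted p = 0.0493). The rise there was not particular to WX-02-23. WX-02-43 libraries had 41, 54 and 42 reads, PladB 10 nM 50, 42 and 45, and PladB 100 nM 40, 35 and 32, with no call for these treatments against DMSO. By rank of the fold the FOSL2 region and the 2 ATF3 regions had an adjusted p of 0.0929, 0.0705 and 0.216 with the same directions. In the same ranking the stereoprobes differed at 3 members, where 4.68% of all regions were called: the FOSL2 region above, FOSL1 43.3 kb downstream (adjusted p = 0.0274) and ATF3 31.0 kb downstream (read percentile 65.4 with WX-02-23 and 51.0 with WX-02-43, adjusted p = 0.0416, and 0.517 by rank of the fold).

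By rank of the fold no member was called for WX-02-43, PladB 10 nM or PladB 100 nM against DMSO with limma, where 0.00368%, 0.00184% and 0.0772% of all regions were. At an unadjusted p under 0.05 there were 2, 4 and 12 members (3.7%, 7.41% and 22.2% of the 54), against 6.0%, 7.2% and 12.5% of all regions. Under PladB 100 nM 75.9% of the 54 members tested had a higher mean percentile than in DMSO, against 53.5% of all regions, and the median difference was 4.43 percentile points against 0.57. The region 1.8 kb from the ATF3 start had a mean percentile of 59.6 in DMSO and 80.7 with PladB 100 nM (adjusted p = 0.317, limma), and the JUN start 27.5 and 48.0 (adjusted p = 0.246). The FOSL1 start went the other way, from 83.6 to 73.3 (adjusted p = 0.62). The PladB 100 nM libraries have the lowest parental background, which enters the fold, and its part in this shift was not tested. With summit reads ranked, 9 members (16.7%) had an unadjusted p under 0.05, against 14% of all regions, and 0 were called.

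In the engineered lines no member was called by limma. The background was 0.293% of regions for WX-02-23 and 0.306% for Dox in the WT-FOXA1 line, and 0 of all 37263 regions (0%) for PladB in that line and for both drugs in the C258A-FOXA1 line. At an unadjusted p under 0.05 there were 14 members for WX-02-23 in the WT-FOXA1 line (30.4% of the 46, against 18.6% of all regions), 1 for PladB (2.17% against 4.69%) and 2 for Dox (4.35% against 7.95%). In the C258A-FOXA1 line there were 1 for WX-02-23 (2.17% against 7.56%) and 3 for PladB (6.52% against 6.32%).

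Under WX-02-23 in the WT-FOXA1 line the starts stood higher in rank than with DMSO. The FOSL2 start had percentile 19.0 and 32.5 with DMSO and 59.2 and 65.1 with WX-02-23 (adjusted p = 0.0942, the smallest among the members). The JUN start went from 51.9 and 53.9 to 80.7 and 82.8 (adjusted p = 0.126). The EGR1 start went from 10.3 and 13.5 to 32.7 and 38.4 (adjusted p = 0.122). The FOS start went from 8.9 and 20.5 to 43.4 and 39.2 (adjusted p = 0.163), and the JUNB start from 8.8 and 7.7 to 23.8 and 38.6 (adjusted p = 0.147). At these 5 starts both treated libraries lay above both DMSO libraries, and none passed the threshold in limma. Such separation, in either direction, was common: it held at 25 of the 46 members and at 50.5% of all regions. Over the 46 members tested the median difference was 9.89 percentile points, against 0.88 over all regions, and 80.4% had a higher percentile, against 53.8%. In the C258A-FOXA1 line the medians were 2.09 and 0.33. The difference between the lines, tested as an interaction in limma, called 0 members and 0% of all regions, with 4 members (8.7%) at an unadjusted p under 0.05, against 7.11% of all regions. The smallest member adjusted p in that test was 0.631, at FOS.

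The reads at these starts did not move the same way as the ranks of the fold. At the JUN start the summit held 140 and 137 reads with DMSO and 129 and 136 with WX-02-23 in the WT-FOXA1 line, at the FOSL2 start 84 and 94 against 81 and 93, and at the FOS start 58 and 61 against 60 and 58. With summit reads ranked, 3 of the 46 members (6.52%) had an unadjusted p under 0.05, against 12.9% of all regions, and 0 were called. The background was 0.856 ± 0.018 reads per base in DMSO and 1.08 ± 0.25 with WX-02-23 (SD, n = 2). The part of background in the ranks of the fold was not tested.

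**Figure D5:**
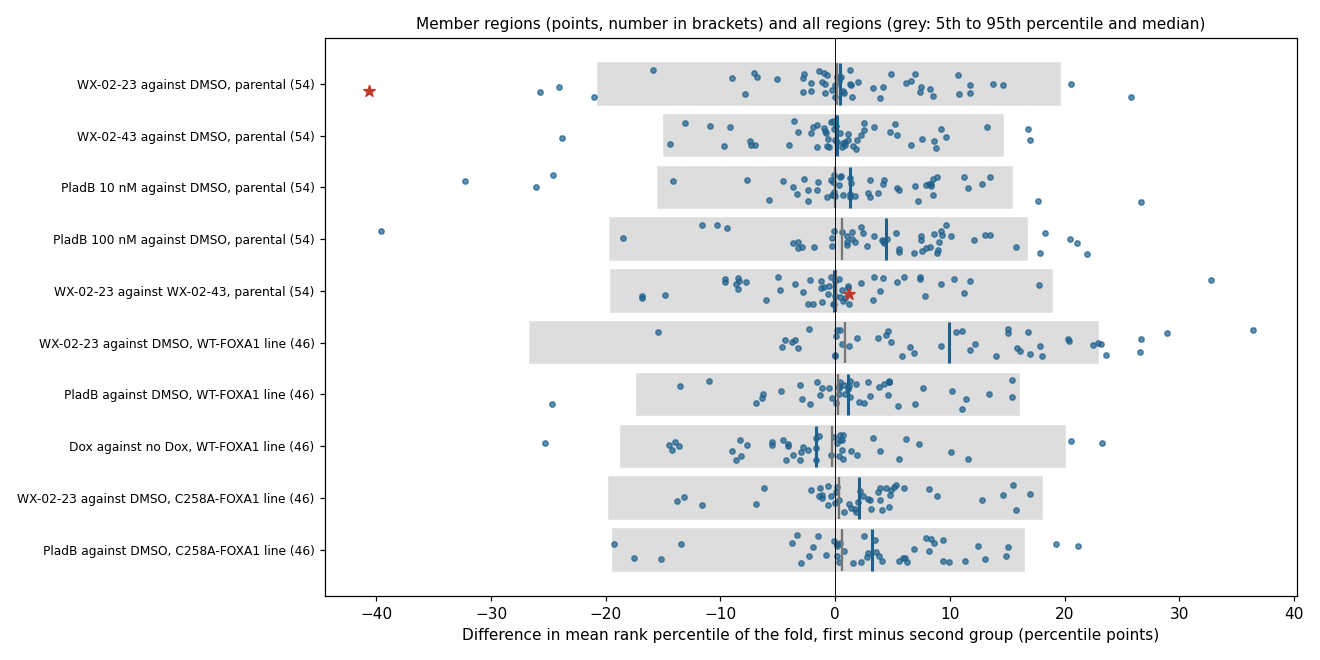
Difference in mean rank percentile of the fold (horizontal axis, first minus second group, in percentile points) for each member tested (blue points, red stars where limma's adjusted p was under 0.05) in 10 comparisons, with a blue line at the members' median. Grey bands span the 5th to 95th percentile of all regions with a grey line at their median, and the members' median lies furthest from it for WX-02-23 in the WT-FOXA1 line (9.89 against 0.88).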

How the data were processed

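The deposited files were 29 peak lists, 1 per library, made by the authors with Bowtie2 and MACS2 on build hg19, per the submitters' processing notes. Versions, options, and filters on duplicate or mitochondrial reads could all change the lists and stand as not given in the sources used here. Each deposited list gives per peak a display score, the fold over local background (a ratio), the −log10 p-value and −log10 q-value and the summit's offset. Every peak had a −log10 q of at least 2.

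Peaks of all 29 lists were merged (overlap of at least 1 bp) into 166696 regions. The score column was not used. Folds of different lists were compared only as ranks within a list among regions held by every library of the fit, as normal scores, in limma 3.58.1 (R 4.3.3), with all 5 parental or all 7 engineered groups in a fit, Benjamini-Hochberg adjustment over all regions and a threshold of 0.05. Tested on simulated data made for the WX-02-23 and DMSO libraries over 54404 regions, it recovered 36.5% of regions shifted by 0.5 and 86% of those shifted by 1 on the log2 scale. Reads at the summit were recovered from the fold and p-value, which gave a whole number within 0.02 in −log10 p for 100% of peaks in every list. The numbers of members held were compared by exact two-sided permutation (SciPy 1.17.1). Promoters came from RefSeq (GRCh38.p14), with 6 of 7 genes matched.

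The 7 genes, the motifs and the tests were chosen with earlier results of these data known. Regions named are those at the starts, the highest other region of each locus in parental DMSO libraries, those with non-overlapping ranks between cell lines, and every member gained, lost or called. The ATF3 region 31.0 kb downstream and those called from summit reads alone, and the members with non-overlapping ranks, were named after their values were seen. Other AP-1 genes were not analysed here, as their starts on hg19 were not at hand. Alternatives covered the peak threshold, list length, overlap, window, value ranked, filter, groups in the fit, a block for the replicate number, and the omission of each library in turn.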

Additional observations from a re-analysis of the deposited data

How the results depend on the processing

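Counts of members gained or lost stayed within 1.5 times under 49 of 95 alternatives and moved under 46. With −log10 q of at least 5, WX-02-23 against DMSO in parental cells went from 0 to 1, WX-02-23 against WX-02-43 from 1 to 0, and WX-02-23 in the C258A-FOXA1 line from 5 to 3. With lists of equal length, WX-02-43 went from 0 to 2, PladB 100 nM from 2 to 1, WX-02-23 against WX-02-43 from 1 to 2, WX-02-23 and PladB in the WT-FOXA1 line from 7 to 3 and 2 to 1, Dox from 4 to 1 and WX-02-23 in the C258A-FOXA1 line from 5 to 3. With a 50% overlap, PladB 100 nM went to 1, WX-02-23 against WX-02-43 to 2 and WX-02-23 in the WT-FOXA1 line to 11. Within 25 kb, WX-02-23 against WX-02-43 went to 0, PladB in the WT-FOXA1 line to 1, Dox to 2 and WX-02-23 in the C258A-FOXA1 line to 3. Where 1 library might go against the others, the parental counts were 7 for WX-02-23, 7 for WX-02-43, 3 for PladB 10 nM, 8 for PladB 100 nM and 12 for WX-02-23 against WX-02-43. Leaving out 1 library gave 0 to 2 for WX-02-23, 0 to 1 for WX-02-43 and PladB 10 nM, 2 to 4 for PladB 100 nM and 1 to 3 for WX-02-23 against WX-02-43. In the WT-FOXA1 line it gave 9 to 13 for WX-02-23, 3 to 9 for PladB and 7 to 11 for Dox, and in the C258A-FOXA1 line 6 to 11 for WX-02-23 and 7 to 10 for PladB. A group of 2 then has 1 library, which loosens the rule by construction. Otherwise the cause was not tested.

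Of the rank counts, WX-02-23 against DMSO (1) became 3 with −log10 p ranked, 4 with summit reads, 2 with centred log2 fold, and 0 among regions held by all 29 libraries, where the FOS region is not tested, or with only the 2 groups (adjusted p = 0.0577 by limma). WX-02-23 against WX-02-43 (1) became 3 with summit reads, and 0 within 25 kb, with centred log2 fold, with no filter on regions (0.969), with the replicate block (0.0543) or with only the 2 groups (0.106). Dox (0) became 1 with no filter, the JUNB region 5.2 kb downstream. Leaving out 1 library gave 0 to 1 for WX-02-23, 0 for WX-02-23 against WX-02-43 and 0 for the others. The replicate block gave an adjusted p of 0.0213 at FOS 9.4 kb upstream. Replicate numbers showed no clear pairing of the libraries. The 25 same-number correlations ran from -0.07 to 0.026, and in 11 of 25 a library correlated best with its own number. In engineered groups of 2 both replicate numbers give the same value by construction, so the 25 are not separate checks.

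The difference in members held, 0.67 for WX-02-43, turned to -0.83 without DMSO replicate 2 and -0.5 without WX-02-43 replicate 1 or 2. Leaving out 1 library gave -3.5 to -1.0 for WX-02-23, -0.83 to 3.0 for WX-02-43, -3.5 to 0.0 for PladB 10 nM and -7.17 to -4.67 for PladB 100 nM. The groups of 2 or 3 libraries, and a detection limit of at least 5 to 8 summit reads, limit what these lists can show.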
